A study of Mus musculus with 16 samples.

Results

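Embryonic macrophages were followed through 10 identity genes, chosen by name: Csf1r, Emr1 (now Adgre1), Cx3cr1, Mrc1, Cd163, F13a1, Mertk, C1qa, C1qb and C1qc. They were 10 of 24579 genes tested, and were chosen with earlier results of these data known. The shares over all genes set beside their counts are therefore description only. The array carried 15 probes for them, and in at least 1 group each of the 15 was well above background on both arrays. Of the 10 genes 4 had several probes, and the probe with the highest mean level stood for each of these.

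The study measured RNA of sorted mouse cells at E11.5 on 16 one-colour Agilent arrays, in 8 groups of 2 arrays. In the Tie-2-Etv2 groups an Etv2 transgene was expressed through Tie-2, as the genotype name has it, which is the gene of an endothelial receptor also called Tek, and the control groups are labelled only as control. Etv2 is an ETS-family transcription factor of early blood and endothelial precursors. Each genotype was sampled in the embryo proper and in the yolk sac, and in each tissue VE-cadherin-positive cells were sorted into a CD45- and a CD45+ gate. CD45 is the pan-leukocyte surface protein encoded by Ptprc, and VE-cadherin, encoded by Cdh5, is an endothelial adhesion protein. All animals were of a mixed background (B6/CBA and others). For the Tie-2-Etv2 embryo CD45- arrays the sample titles mention only Tie-2, while the genotype label gives Tie-2-Etv2. The Tie-2 promoter is active in endothelium and in part of the blood lineage, so the transgene was not limited to one of these. Whether paired arrays of a group stem from different embryos or litters is not stated, so p-values reflect the spread between these particular samples, which may be technical.

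Macrophages of the midgestation embryo are the first tissue-resident leukocytes. Many derive from yolk sac progenitors, enter the embryo through the circulation, and clear dying cells. Their survival depends on the receptor Csf1r, they engulf apoptotic cells through receptors such as Mertk, and they make the C1q chains that start the classical complement pathway.

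Levels are given as the log2 processed signal minus the 75th percentile of the same array, so 0 is the level of a fairly bright probe, and each difference is on the same log2 scale. A level of one gene cannot be set against that of another, as probes differ in brightness. Between 50.6 and 59.9% of probes were well above background per array, and replicate arrays had a Pearson r of 0.975 to 0.992 over genes. All embryo arrays lay on 1 slide and all yolk sac arrays on another, the gates lay in different columns of a slide and the genotypes in different rows, so tissue, gate and genotype cannot be told apart from these positions. A gene was called at a limma adjusted p below 0.05. Etv2 itself stood at 2.58 and 2.13 in Tie-2-Etv2 embryo CD45- cells, against -0.14 and -0.13 in control cells. Its genotype difference was 6.36 ± 0.96 (SE) in yolk sac CD45- cells and 6.08 ± 0.96 in yolk sac CD45+ cells, both called. In embryo CD45- and CD45+ cells it was 2.50 and 3.09 and did not pass (adjusted p = 0.573 and 0.123). The SE comes from a spread shared by all 8 groups. Control yolk sac CD45+ arrays stood at -6.20 and -2.09, with 1 of the 2 well above background, so the size of 6.08 is not exact. In embryo CD45+ cells Etv2 stood at 0.11 and 0.94 in Tie-2-Etv2 samples, against -2.39 and -2.75 in control samples.

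The label was first set against the gates. In control cells 9 of the 10 macrophage genes were higher in CD45+ than in CD45- cells of either tissue. Macrophages are leukocytes and CD45 is a leukocyte protein, so the sort favours this direction and the count is no independent check of the label. C1qa was well above background on no CD45- array, and was thus kept for testing through CD45+ cells alone. Over all genes 36.6% were called in the embryo (19.9% higher) and 38.4% in the yolk sac (22.6% higher). The median CD45+ minus CD45- difference of the 10 genes was 9.64 in embryo and 9.47 in yolk sac cells, against 0.08 and 0.20 over all genes tested. C1qc was at least 5542-fold and Cx3cr1 at least 5739-fold higher in control yolk sac CD45+ than CD45- cells, as neither was well above background in the CD45- cells. These lower bounds set the bright mean against the lowest signal well above background on each dim array, or the dim probe's own signal where that was higher. Mrc1 and Mertk were the least restricted of the genes called, with control yolk sac differences of 3.30 ± 0.48 (adjusted p = 0.000272) and 2.30 ± 0.50 (adjusted p = 0.0038). In control cells Ptprc, not well above background in CD45- cells, was at least 287-fold higher in embryo and at least 300-fold higher in yolk sac CD45+ than CD45- cells. Cdh5 differed by -5.95 and -6.01. Cdh5 remained well above background on every array.

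**Figure D1:**
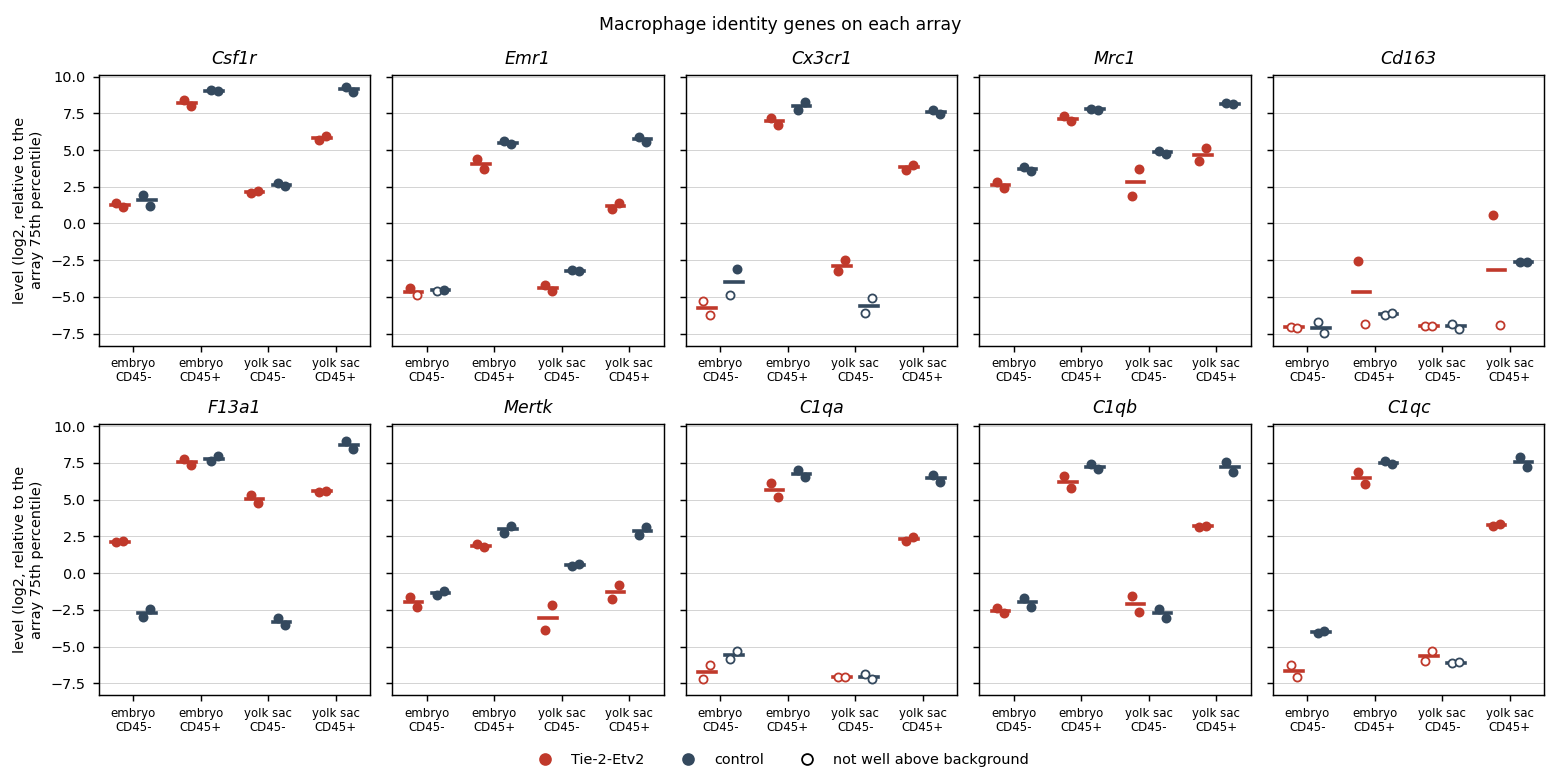
Level of each macrophage gene on each of the 16 arrays (log2 processed signal relative to the 75th percentile of the array), with Tie-2-Etv2 arrays in red left of control arrays in blue, a bar at each mean of 2, and open circles where a probe was not well above background. In CD45+ cells of the yolk sac the Tie-2-Etv2 arrays lie below both control arrays for every gene but Cd163, and F13a1 in CD45- cells lies above both control arrays in both tissues.

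In yolk sac CD45+ cells 9 of the 10 macrophage genes fell in Tie-2-Etv2 samples, by 3.15 to 4.55 on the log2 scale, while 14.4% of all genes were called lower and 32.5% in either direction. The median difference of the 10 genes was -3.92, against 0.04 over all genes. In such bulk RNA fewer cells of a type and less RNA per cell cannot be told apart.

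Csf1r, the receptor of the growth factors Csf1 and Il34, stood at 5.67 and 5.93 in Tie-2-Etv2 yolk sac CD45+ cells, against 9.30 and 8.97 in control cells. The groups did not overlap, and the difference was -3.33 ± 0.26 (10.1-fold lower, adjusted p = 1.78e-05). Emr1, which encodes the F4/80 surface protein, stood at 0.97 and 1.37 in Tie-2-Etv2 cells, against 5.90 and 5.54 in control cells. The difference by the probe used was -4.55 ± 0.26 (23.4-fold lower, adjusted p = 6.14e-06), and by its other probe it stood at 2.12 and 2.50 in Tie-2-Etv2 cells, against 6.72 and 6.32 in control cells. Cx3cr1, the receptor of the chemokine fractalkine, stood at 3.64 and 3.99 in Tie-2-Etv2 cells, against 7.74 and 7.47 in control cells. The difference was -3.78 ± 0.57 (13.8-fold lower, adjusted p = 0.000619).

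The uptake receptors fell as well. Mrc1, the mannose receptor, stood at 4.24 and 5.11 in Tie-2-Etv2 yolk sac CD45+ cells, against 8.19 and 8.10 in control cells, a difference of -3.47 ± 0.48 (adjusted p = 0.000364). Mertk, the receptor kinase for apoptotic cells bound by Gas6 or Pros1, stood at -1.74 and -0.80 in Tie-2-Etv2 cells, against 2.63 and 3.11 in control cells, a difference of -4.14 ± 0.50 (adjusted p = 0.000174). For both genes the higher Tie-2-Etv2 array lay well below the lower control array. Cd163, the haemoglobin scavenger receptor, stood at 0.56 and -6.92 in Tie-2-Etv2 cells, against -2.61 and -2.62 in control cells. One Tie-2-Etv2 array thus lay above both controls and the other was not well above background, so the groups overlapped and the difference of -0.57 ± 1.91 did not pass (adjusted p = 0.85). Without Tie-2-Etv2 replicate 1 it was -4.31 (adjusted p = 0.0358).

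The 3 chains of complement C1q are encoded side by side on chromosome 4, all on the minus strand, and each was read by 1 probe. The probe sequences are printed because the 3 values rest on them alone, with positions on mm9 at chr4:136452409-136452468 for C1qa, chr4:136436578-136436637 for C1qb and chr4:136445766-136445825 for C1qc. No base is marked in capitals.
C1qa probe: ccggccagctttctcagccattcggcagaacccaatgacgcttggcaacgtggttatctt
C1qb probe: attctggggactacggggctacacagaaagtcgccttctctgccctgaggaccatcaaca
C1qc probe: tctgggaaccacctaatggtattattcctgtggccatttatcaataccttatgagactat

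The 3 chains fell by nearly the same amount in yolk sac CD45+ cells. C1qa stood at 2.21 and 2.44 in Tie-2-Etv2 cells, against 6.71 and 6.20 in control cells. C1qb stood at 3.15 and 3.22 in Tie-2-Etv2 cells, against 7.59 and 6.92 in control cells. In all 3 the Tie-2-Etv2 arrays lay close together and far below both controls, and for C1qc they were 3.24 and 3.38, against 7.89 and 7.21 in control cells. The differences were -4.13 ± 0.38 for C1qa (adjusted p = 4.14e-05), -4.07 ± 0.42 for C1qb (adjusted p = 7.02e-05) and -4.25 ± 0.36 for C1qc (adjusted p = 2.80e-05). Each Tie-2-Etv2 array kept the order of levels C1qa, C1qb, C1qc of the control arrays, which for different probes describes the probes and not the transcripts.

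F13a1, the catalytic subunit of coagulation factor XIII, is a gene of macrophages and also of megakaryocytes and platelets. It stood at 5.55 and 5.60 in Tie-2-Etv2 yolk sac CD45+ cells, against 8.99 and 8.46 in control cells. By this bright probe it fell by 3.15 ± 0.29 (8.86-fold, adjusted p = 3.87e-05), and by its dim probe it stood at -0.87 and -0.82 in Tie-2-Etv2 cells, against 3.36 and 2.79 in control cells.

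**Figure D2:**
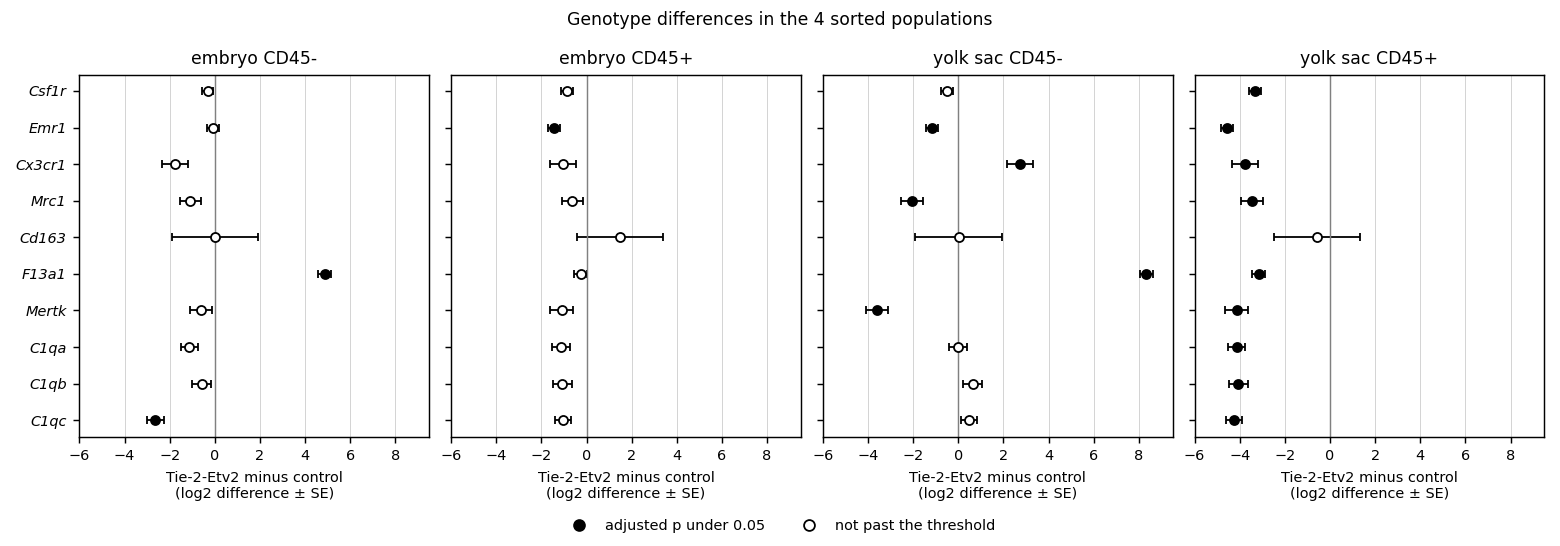
Tie-2-Etv2 minus control difference (log2, with SE bars) of each macrophage gene in the 4 sorted populations, filled where the adjusted p was below 0.05. In yolk sac CD45+ cells 9 points lie between -4.55 and -3.15, whereas in embryo CD45+ cells Emr1 alone is filled at -1.44, and F13a1 reaches 8.34 in yolk sac CD45- cells.

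Other cell markers moved in the same comparison. Of 7 leukocyte markers 3 fell and none rose in yolk sac CD45+ cells, while 14.4% of all genes were called lower and 18.1% higher. The median difference of the 7 was -0.34. Their summed log2 level was 8.37 to 8.53 in Tie-2-Etv2 cells, against 8.23 to 8.60 in control cells. Such a sum is set mainly by the brightest probes of a list. Ptprc itself stood at 2.08 and 2.06 in Tie-2-Etv2 cells, against 3.28 and 3.41 in control cells, and fell by 1.28 ± 0.30 (adjusted p = 0.00747). Of 10 endothelial markers 8 rose (median 2.57), with a summed log2 level of 8.37 to 8.40 in Tie-2-Etv2 cells, against 5.70 to 5.78 in control cells. Tek rose by 5.02 ± 0.31 and Cdh5 by 3.25 ± 0.30. Of 9 granulocyte markers 7 rose (median 4.44, summed log2 level 10.09 to 10.43 in Tie-2-Etv2 cells, against 4.87 to 7.04 in control cells), among them Mpo, the neutrophil peroxidase, by 3.69 ± 0.53. Of 10 megakaryocyte and platelet markers 7 rose and 3 fell, with a positive median difference. Their summed log2 level was nevertheless lower, at 7.91 to 8.34 in Tie-2-Etv2 cells, against 8.86 to 9.34 in control cells. Of 4 mast cell markers tested 2 rose and 1 fell (median 1.54), with a summed log2 level of 5.22 to 5.33 in Tie-2-Etv2 cells, against -0.16 to 1.65 in control cells, and Mcpt4 was not well above background in either. Of 6 lymphatic and sinusoidal endothelial markers 3 fell and 1 rose (median -1.59), with 4.32 to 5.24 in Tie-2-Etv2 cells, against 8.54 to 8.59 in control cells, where Flt4 was not well above background. In control yolk sac CD45- cells the sum of this list was alike, at 8.46 to 8.64, whereas that of the endothelial markers was far higher, at 9.91 to 10.08. In the CD45+ gate the list therefore cannot be read as endothelial cells alone. No defining marker of the leukocyte, endothelial or granulocyte lists was below background on every array of either genotype, and the part of these cells in the fall of the macrophage genes was not tested.

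Embryo CD45+ cells gave smaller values. Only Emr1 was called, while 3.04% of all genes were (2.31% higher, 0.732% lower). It stood at 4.36 and 3.74 in Tie-2-Etv2 embryo CD45+ cells, against 5.59 and 5.39 in control cells, a difference of -1.44 ± 0.26 (adjusted p = 0.0149). This call was lost without control replicate 1 (adjusted p = 0.0827) and without Tie-2-Etv2 replicate 2 (adjusted p = 0.148).

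Of the other 9 macrophage genes in embryo CD45+ cells, 8 had negative differences, from -0.26 for F13a1 to -1.13 for C1qa, and none passed. Csf1r stood at 8.39 and 7.98 in Tie-2-Etv2 cells, against 9.10 and 8.99 in control cells, a difference of -0.86 ± 0.26 (adjusted p = 0.113). Its 2 dimmer probes gave -1.36 and -1.29 and did pass (adjusted p = 0.0415 and 0.0178). The 3 C1q chains differed by -1.13, -1.07 and -1.05 in the order C1qa, C1qb, C1qc, with adjusted p of 0.161, 0.229 and 0.169. C1qc, for example, stood at 6.90 and 6.06 in Tie-2-Etv2 cells, against 7.63 and 7.43 in control cells, so both Tie-2-Etv2 arrays were lower. Mertk stood at 2.00 and 1.75 in Tie-2-Etv2 cells, against 2.75 and 3.20 in control cells (-1.10 ± 0.50, adjusted p = 0.308), and Mrc1 at 7.30 and 6.97 in Tie-2-Etv2 cells, against 7.79 and 7.74 in control cells (-0.63 ± 0.48, adjusted p = 0.611). F13a1 overlapped between the genotypes, at 7.75 and 7.33 in Tie-2-Etv2 cells, against 7.64 and 7.95 in control cells. Cd163 was well above background on 1 of the 2 Tie-2-Etv2 arrays and on neither control array. The median of the 10 genes was -1.04, against -0.03 over all genes. With normexp background correction 5 of the 10 genes were called lower: Emr1, Cx3cr1, Mertk, C1qa and C1qc. The share of all genes called under that correction is not given, so this count only describes these genes. In the same cells leukocyte markers had no call in 7 (median 0.18), 5 of 10 endothelial markers rose (median 1.40), 2 of 9 granulocyte markers rose (median 4.35), and their part was not tested.

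The difference between tissues was tested directly. The genotype effect in CD45+ cells was lower in the yolk sac than in the embryo for 7 of 10 genes, from -2.47 for Csf1r to -3.20 for C1qc, while 3.13% of all genes were called in either direction and 2.03% lower. The F13a1 call was not made by its dim probe (-3.38, adjusted p = 0.191) or by the mean of its probes (-3.13, adjusted p = 0.0532). The Mertk call was lost with quantile scaling (adjusted p = 0.0545) and with scaling on detected probes (adjusted p = 0.0518). With no filter on dim probes the calls of Mertk (adjusted p = 0.0823) and C1qb (adjusted p = 0.0539) were lost. That of Mertk was also lost whichever array was left out. Cx3cr1 (-2.75, adjusted p = 0.0994), Mrc1 (-2.84, adjusted p = 0.051) and Cd163 (-2.06, adjusted p = 0.76) did not pass. These calls depended on the arrays used: none was made on the 8 arrays compared taken alone (adjusted p of 0.0875 to 0.0936 for the 7 genes), 1 without Tie-2-Etv2 embryo replicate 1, and 2 without Tie-2-Etv2 yolk sac replicate 1. The calls over all genes moved likewise: 270 were higher and 500 lower with all arrays, none was called on the 8 arrays alone, 25 were higher and 63 lower without Tie-2-Etv2 embryo replicate 1, and 36 were higher and 82 lower without Tie-2-Etv2 yolk sac replicate 1. Most of the 10 genes shared an order of the CD45+ groups. Both control groups lay above Tie-2-Etv2 embryo cells on every array for 8 of 10 genes (not F13a1 or Cd163), and Tie-2-Etv2 embryo cells lay above Tie-2-Etv2 yolk sac cells for 9 of 10 (not Cd163). The share of all genes with these orders is not given. These counts therefore only describe the 10 genes, many of which vary together.

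CD45+ cells of control yolk sac and control embryo, at the top of that order, did not differ in any of the 10 genes by limma, with 1 gene at an unadjusted p below 0.05 (F13a1, 0.93 ± 0.29, adjusted p = 0.166), while 1.71% of all genes were called. The same count of 0 came out under every alternative setting tried. Cd163 was well above background on both control yolk sac CD45+ arrays and on neither control embryo array, at least 3.81-fold higher in the yolk sac without passing (adjusted p = 0.479). No other group had both arrays well above background for Cd163, so it was kept for testing through control yolk sac CD45+ cells alone. That it was brighter there is thus no independent result.

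F13a1 took the opposite course in the CD45- gate. It is shown with both of its probes, because the second is dimmer and did not carry the embryo call. The bright probe lies at chr13:36959214-36959273 and the dim probe at chr13:37063829-37063888 on mm9, both on the minus strand, with no base marked in capitals.
F13a1 bright probe: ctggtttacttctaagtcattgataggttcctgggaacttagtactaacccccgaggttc
F13a1 dim probe: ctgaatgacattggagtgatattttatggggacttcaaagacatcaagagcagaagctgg

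By the bright probe F13a1 stood at 5.30 and 4.78 in Tie-2-Etv2 yolk sac CD45- cells, against -3.05 and -3.56 in control cells. The rise of 8.34 ± 0.29 (325-fold, adjusted p = 4.10e-08) brought it close to the CD45+ level of the same tissue and genotype. In Tie-2-Etv2 yolk sac its CD45+ minus CD45- difference was 0.54 ± 0.29 and did not pass (adjusted p = 0.367), whereas in control yolk sac it was 12.03 ± 0.29 (adjusted p = 2.17e-09). In embryo CD45- cells it stood at 2.10 and 2.18 in Tie-2-Etv2 samples, against -3.00 and -2.44 in control samples, a rise of 4.86 ± 0.29 (29-fold, adjusted p = 8.29e-06). The dim probe gave 2.32 in embryo CD45- cells and did not pass (adjusted p = 0.605), with neither control array well above background. In yolk sac CD45- cells it stood at -1.04 and -1.88 in Tie-2-Etv2 samples, against -3.52 and -7.15 in control samples.

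Markers of other blood cells rose with F13a1 in the CD45- gate. Of 10 megakaryocyte and platelet markers 9 rose in yolk sac CD45- cells (median 5.42) and 6 in embryo CD45- cells (median 4.07). Over all genes 26.1% were called higher in yolk sac and 1.25% in embryo CD45- cells. Their summed log2 level was 9.81 to 10.15 in Tie-2-Etv2 yolk sac CD45- cells, against 4.31 to 4.33 in control cells. Gp9, a subunit of the platelet von Willebrand factor receptor, rose by 7.87 ± 0.50 in the yolk sac and 5.62 ± 0.50 in the embryo. All 7 leukocyte markers rose in yolk sac CD45- cells (median 4.51), Ptprc at least 3.27-fold (adjusted p = 0.000808, not well above background in control cells), and 4 of 7 in embryo CD45- cells (median 2.43). Pf4, a platelet chemokine that embryonic macrophages also express and that stands in both the platelet and the secreted macrophage lists, rose by 7.50 ± 0.32 in yolk sac and 4.98 ± 0.32 in embryo CD45- cells, and fell by 2.13 ± 0.32 in yolk sac CD45+ cells. The part of these cells in the rise of F13a1 was not tested.

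Of the other 9 macrophage genes, Cx3cr1 alone was also called higher in yolk sac CD45- cells. Of all 10 genes 2 rose and 3 fell there. Over all genes 41.9% were called (26.1% higher, 15.8% lower), so the share of members was near that of all genes. Cx3cr1 stood at -3.21 and -2.52 in Tie-2-Etv2 cells, against -6.08 and -5.10 in control cells, where neither array was well above background. It was at least 4.04-fold higher (adjusted p = 0.00337), and with normexp the difference was 0.41 (adjusted p = 0.171). Mertk fell furthest, to -3.86 and -2.20 in Tie-2-Etv2 cells, against 0.52 and 0.62 in control cells (-3.60 ± 0.50, adjusted p = 0.000303). Mrc1 stood at 1.90 and 3.69 in Tie-2-Etv2 cells, against 4.96 and 4.72 in control cells (-2.05 ± 0.48, adjusted p = 0.00611), a call that was not made on these 4 arrays alone (adjusted p = 0.0585). Mrc1 is also a gene of lymphatic and sinusoidal endothelium, and 5 of 6 markers of those cells fell here with no rise (median -2.02), their summed log2 level being 5.42 to 6.99 in Tie-2-Etv2 cells, against 8.46 to 8.64 in control cells. Of 10 endothelial markers 7 fell (median -1.50), and the part of either list in the fall of Mrc1 and Mertk was not tested.

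Emr1 was read differently by its probes in yolk sac CD45- cells. The probe at chr17:57620350-57620409, plus strand, gave -4.20 and -4.59 in Tie-2-Etv2 cells, against -3.19 and -3.26 in control cells (-1.17 ± 0.26, adjusted p = 0.0052). The probe at chr17:57622868-57622927 did not rise well above background on a single CD45- array, and gave -0.11 (adjusted p = 0.78). The first call was lost with normexp (-0.38, adjusted p = 0.192). The C1q genes gave no call here, and C1qa and C1qc were not well above background in either genotype. Csf1r remained well above background in CD45- cells, at 2.06 and 2.21 in Tie-2-Etv2 yolk sac cells, against 2.73 and 2.53 in control cells (-0.49 ± 0.26, adjusted p = 0.156).

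In embryo CD45- cells 1.29% of all genes were called, and F13a1 and C1qc were the members among them. C1qc stood at -6.22 and -7.05 in Tie-2-Etv2 embryo CD45- cells, neither well above background, against -4.06 and -3.96 in control cells. It was at least 1.94-fold lower (adjusted p = 0.00333), a call lost with normexp (-0.16, adjusted p = 0.967) and on these 4 arrays alone (adjusted p = 0.101).

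In control CD45- cells Csf1r, Emr1 and Mertk were called higher and C1qa and C1qc lower in the yolk sac than in the embryo, but 4 of these calls depended on single arrays, while 5.45% of all genes were called higher and 6.09% lower. Mertk stood at 0.52 and 0.62 in control yolk sac cells, against -1.48 and -1.20 in control embryo cells (1.90 ± 0.50, adjusted p = 0.0347). C1qa was not well above background in either tissue and C1qc was so in the embryo only, at least 1.83-fold lower in the yolk sac. The call for Csf1r (1.05 ± 0.26) turned to -0.37 by another of its probes, and that for Emr1 (1.33 ± 0.26) to -1.28 by the probe that was below background. With 1 array left out the calls were 1 to 3. Those for Mertk (adjusted p of 0.072 to 0.159) and C1qa (0.0591 to 0.188) were lost whichever of the 4 arrays was left out, and those for Csf1r and Emr1 in 3 of the 4 fits each. With no filter on dim probes the calls of Csf1r, Mertk and C1qa were lost as well (adjusted p = 0.0508, 0.0561 and 0.0539). With normexp those of Emr1 (0.46, adjusted p = 0.207) and C1qc (-0.17, adjusted p = 0.769) were lost, and C1qa differed by 0.01.

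**Figure D3:**
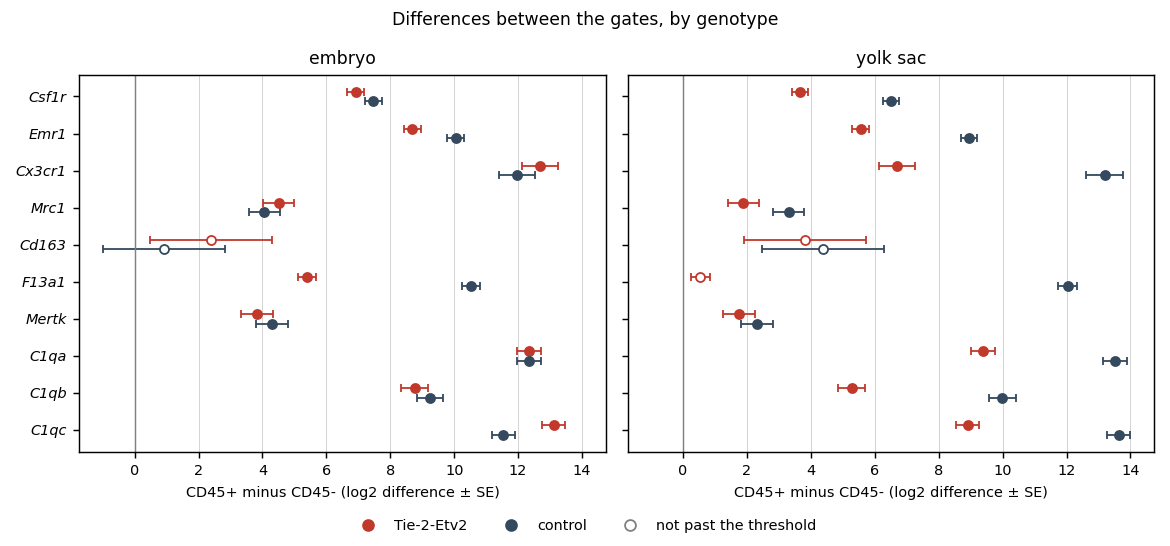
CD45+ minus CD45- difference (log2, with SE bars) of each macrophage gene, with Tie-2-Etv2 in red above control in blue, filled where the adjusted p was below 0.05. In the embryo the widest gap between the genotypes is that of F13a1 (5.40 against 10.52), and in the yolk sac the Tie-2-Etv2 points lie to the left, with F13a1 at 0.54.

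The gate difference itself changed with genotype. In Tie-2-Etv2 embryo 9 of 10 genes were higher in CD45+ than in CD45- cells (30.3% of all genes called, 16.4% higher), and in Tie-2-Etv2 yolk sac 8 of 10 were (10.4% called, 4.46% higher), with medians of 7.80 and 4.54. The genotype effect was lower in CD45+ than in CD45- cells for 7 of 10 genes in the yolk sac (18.4% of all genes called, 10.5% lower), from -2.84 for Csf1r to -11.49 for F13a1. Those of C1qa and C1qc rest on CD45- probes not well above background in either genotype, and that of Cx3cr1 on one not well above background in control cells, so their sizes are not exact. In the embryo this held for F13a1 alone, at -5.12 ± 0.41 (adjusted p = 0.000174, with 1.14% of all genes called, 0.574% lower). The dim probe of F13a1 gave -2.87 there and did not pass (adjusted p = 0.61). In the CD45- gate the genotype effect was higher in the yolk sac than in the embryo for Cx3cr1, F13a1 and C1qc and lower for Mertk (15.9% of all genes called). Both Cx3cr1 and C1qc had CD45- groups not well above background, and with normexp neither passed (0.61 and 0.10, adjusted p = 0.208 and 0.879). The F13a1 call was not made by its dim probe (adjusted p = 0.445), and the Mertk call was lost in 5 of the 8 fits that left out 1 array (adjusted p of 0.0517 to 0.0738). In Tie-2-Etv2 yolk sac the gate calls of Mrc1 (1.88 ± 0.48, adjusted p = 0.0291) and Mertk (1.76 ± 0.50, adjusted p = 0.0489) depended on the setting. Both were lost without CD45- replicate 1 (0.99 and 0.93) and without CD45+ replicate 2 (1.45 and 1.29). They were also lost on the compared arrays alone (adjusted p = 0.247 and 0.26) and on 1 slide alone (adjusted p = 0.124 and 0.143). Mertk was lost as well with quantile scaling, scaling on detected probes and no filter on dim probes (adjusted p = 0.0627, 0.0729 and 0.0775).

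The wider macrophage programme was described through lists of other genes. In yolk sac CD45+ cells 13 of 16 other phagocytic and scavenger receptors fell and 1 rose, with a median of -3.36. Cd36, a receptor for oxidised lipids, fell by 4.57 ± 0.56, Trem2, a lipid-sensing receptor, by 4.19 ± 0.85, and its adaptor Tyrobp by 1.74 ± 0.44. Of 12 lysosomal and secreted proteins 11 fell and none rose (median -3.37), with Ms4a7 down by 5.03 ± 0.43, while Lyz2, the lysozyme of macrophages and granulocytes, did not pass (0.45 ± 0.29, adjusted p = 0.271). Of 12 other complement genes 8 fell and 1 rose (median -2.31), and C2, a protease of the classical pathway, fell by 4.92 ± 0.64. Of 7 microglia genes 5 fell (median -2.78), including the purinergic receptor P2ry12 by 3.98 ± 0.33 and Gpr34 by 4.26 ± 0.35. Of 6 monocyte genes tested 3 fell and 2 rose (median -1.91), and Ly86 fell by 4.40 ± 0.58.

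The transcription factors split. In yolk sac CD45+ cells 9 of 12 macrophage transcription factors fell and none rose (median -1.84). Maf stood at 1.41 and 2.32 in Tie-2-Etv2 cells, against 5.69 and 5.49 in control cells (-3.73 ± 0.57, adjusted p = 0.000697). Maf is a factor of differentiated macrophages, and it also fell by 2.09 ± 0.57 in yolk sac CD45- cells. Spi1, which encodes PU.1, the factor needed for all myeloid cells, stood at 1.81 and 1.78 in Tie-2-Etv2 yolk sac CD45+ cells, against 2.38 and 2.52 in control cells, and did not pass (-0.65 ± 0.36, adjusted p = 0.198). Spi1 was not well above background on any control CD45- array. It was at least 23.9-fold higher in Tie-2-Etv2 than control yolk sac CD45- cells (adjusted p = 2.43e-06) and at least 2.49-fold higher in Tie-2-Etv2 than control embryo CD45- cells (adjusted p = 0.00236). Runx1, a factor of blood cell emergence, rose by 4.62 ± 0.67 in yolk sac CD45- cells.

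**Figure D4:**
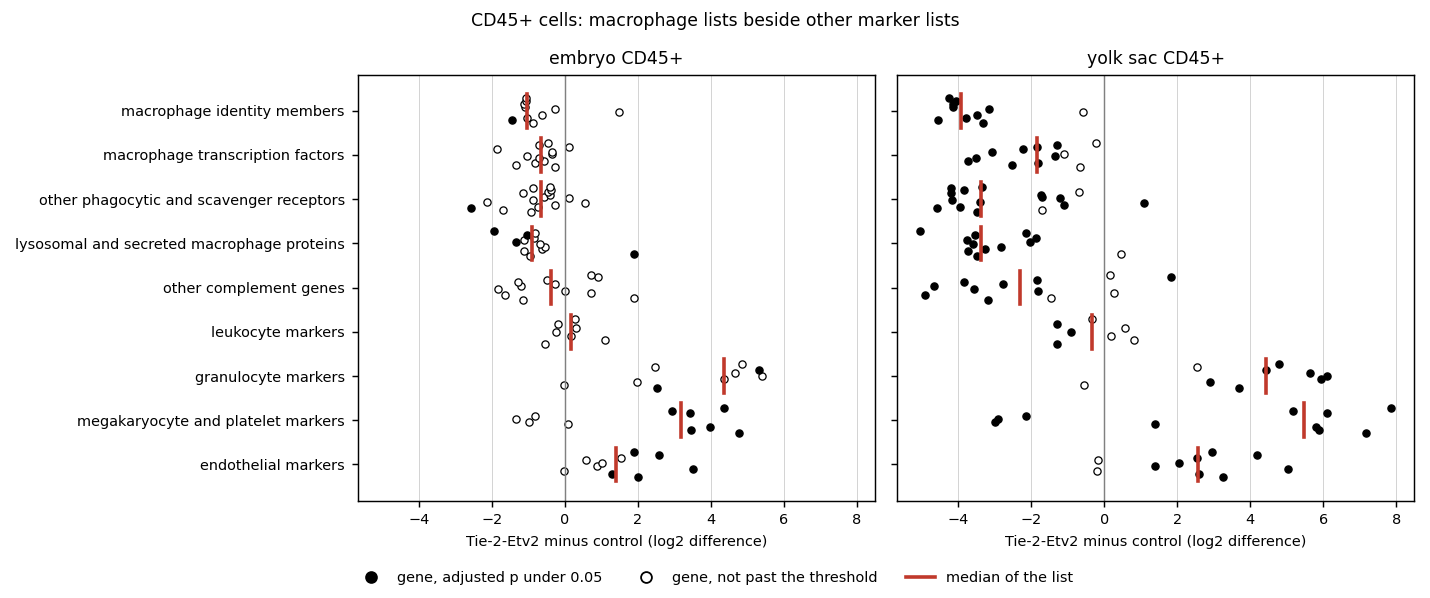
Tie-2-Etv2 minus control differences (log2) of single genes in CD45+ cells of the embryo and the yolk sac, by list, filled where the adjusted p was below 0.05, with the median of each list in red. In the yolk sac the macrophage lists have medians of -3.92 to -1.84, the leukocyte markers -0.34, and the granulocyte, megakaryocyte and endothelial markers 4.44, 5.48 and 2.57.

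Of the ligands of the receptors, Gas6 stood at 3.58 and 4.31 in Tie-2-Etv2 yolk sac CD45+ cells, against 8.17 and 7.88 in control cells, and fell by 4.08 ± 0.31 (adjusted p = 1.66e-05). Gas6 bridges apoptotic cells to Mertk, and it fell with its receptor by a like amount. Pros1, the other such bridge, fell by 1.31 ± 0.20, while Cx3cl1, the ligand of Cx3cr1, rose by 2.61 ± 0.53 in yolk sac CD45+ and fell by 1.81 ± 0.53 in yolk sac CD45- cells. Csf1 and Il34, the ligands of Csf1r, did not pass in any population. Csf1 differed by -2.36 ± 1.01 and Il34 by 0.13 ± 0.47 in yolk sac CD45+ cells (adjusted p = 0.103 and 0.864).

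Across the 8 group means, the genes with the pattern most like C1qa were Ifi207, Ctss and Tlr1 (Pearson r of 0.9992, 0.9982 and 0.9976), out of 16527 genes with a symbol. Csf1r was most like Emr1 (r = 0.9982), C1qb like P2ry13 (r = 0.9991) and Cx3cr1 like Ccl6 (r = 0.9985). F13a1 was closest to Evi2a, Aoah and Tigd4 (r = 0.9932, 0.9927 and 0.9917) and only at 0.62 with Mrc1 and 0.46 with Mertk. Mertk and Mrc1 correlated at 0.97. Mertk was closest to Ang4, Sat1 and Ang2, Mrc1 to Lgmn, Grina and Il10rb, C1qc to Tlr1, Ctss and Ly86, and Emr1 to Pld4, Csf1r and Fcrl1. Cd163 had no near match (r of at most 0.9554, with Ect2). These values rest on 8 means that share arrays and are largely set by the difference between the gates.

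Promoter windows are shown for C1qb and C1qc, which fell together in yolk sac CD45+ cells, and for both listed starts of F13a1, which rose in CD45- cells. They are RefSeq windows on GRCm38.p6 that lie mostly upstream of a start and run shortly past it, printed along the minus strand on which all lie. Such windows were listed for 7 of the 10 genes, 8 windows in all. Capitals mark GAGGAA, the core letters of the PU.1 motif, on either strand. The windows lie at chr4:136886151-136886450 for C1qb, chr4:136892865-136893164 for C1qc, and chr13:37050195-37050494 and chr13:37049164-37049463 for F13a1.
C1qb promoter: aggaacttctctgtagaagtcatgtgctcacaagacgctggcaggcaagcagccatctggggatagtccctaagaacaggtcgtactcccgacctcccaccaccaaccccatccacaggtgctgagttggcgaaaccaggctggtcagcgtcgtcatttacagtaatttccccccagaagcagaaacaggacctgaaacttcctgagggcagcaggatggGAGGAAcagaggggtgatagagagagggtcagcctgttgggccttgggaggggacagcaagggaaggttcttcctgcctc
C1qc promoter: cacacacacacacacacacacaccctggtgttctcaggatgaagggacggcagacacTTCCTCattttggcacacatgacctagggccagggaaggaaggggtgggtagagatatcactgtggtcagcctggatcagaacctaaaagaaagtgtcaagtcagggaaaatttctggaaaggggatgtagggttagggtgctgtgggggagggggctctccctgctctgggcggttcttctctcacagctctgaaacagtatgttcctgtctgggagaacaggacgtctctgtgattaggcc
F13a1 promoter, first start: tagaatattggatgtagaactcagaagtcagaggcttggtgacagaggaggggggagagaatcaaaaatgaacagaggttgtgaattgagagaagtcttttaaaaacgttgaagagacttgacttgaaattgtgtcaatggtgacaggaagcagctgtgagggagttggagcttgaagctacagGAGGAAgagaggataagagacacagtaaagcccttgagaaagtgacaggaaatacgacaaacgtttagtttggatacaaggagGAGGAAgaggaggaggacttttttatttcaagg
F13a1 promoter, second start: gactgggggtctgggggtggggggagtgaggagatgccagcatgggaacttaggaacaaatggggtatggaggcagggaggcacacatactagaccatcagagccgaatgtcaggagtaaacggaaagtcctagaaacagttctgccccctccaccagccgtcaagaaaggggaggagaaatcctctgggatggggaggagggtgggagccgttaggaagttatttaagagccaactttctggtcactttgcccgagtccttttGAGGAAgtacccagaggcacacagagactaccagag

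GAGGAA was found in 5 of the 8 windows, those of C1qb, C1qc, Mrc1 and both of F13a1, and in 28.3% of all 32851 mouse promoter windows of the same length. GGAA, the shorter core shared by ETS factors such as Etv2 and PU.1 and contained in GAGGAA, was in all 8 and in 96.0% of all windows. The longer motif was picked after several were looked at in these windows. The match was held by genes that fell and by F13a1, which rose in CD45- and fell in yolk sac CD45+ cells, and the windows of Mertk, Cx3cr1 and Cd163 did not hold these letters.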

How the data were processed

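Sorted cells were profiled on 16 one-colour arrays, grouped by sample title. The deposited scanner files hold spot intensity values from Agilent Feature Extraction 10.7, as the submitters' processing notes say. Per the file headers, the processed intensity is background-subtracted, with no scaling between arrays. RNA was labelled with Cy3 by a low-input kit, per the labels' protocols. An array holds 62976 spots, and the 59305 non-control spots represent 55681 probes. Control and outlier spots were left out, which lost 87 probes, and spots of a probe were averaged. Levels are log2 of the processed signal minus the 75th percentile of the array. Probes were kept if some group had both of its arrays well above background (34126 probes, 24579 genes), and the probe with the highest mean stood for a gene. No spot was saturated, and the number of arrays limits the precision.

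One model of 8 group means was fitted with limma 3.58.1 in R 4.3.3 (lmFit, eBayes, 8 residual and 2.29 prior degrees of freedom), two-sided, with Benjamini-Hochberg adjustment over all genes for each of 14 comparisons, and was tested on simulated data. All adjusted p-values are limma's. Alternatives were normexp with an offset of 50, quantile scaling, scaling on detected probes, other filters, the mean of probes, a trended prior, the compared arrays alone, 1 slide alone, the replicate number as a block, and leaving out 1 array. The macrophage genes and all lists of other genes were chosen with earlier results of these data known. All members were named. From each other list, the called genes with the 3 largest genotype differences were eligible for naming, with preset ligands, transcription factors and gate genes, and for each member the 3 genes most like it. Some genes that this rule names are not reported here.

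The deposited value table holds log2 values. Against the scanner values, differences between arrays correlated at 0.999979 or more, so scale and direction were found. It is centred per probe within tissue and gate, by a step not given in the sources used here, and served as an alternative for genotype comparisons. Its column medians, Tie-2-Etv2 then control, were 0.0281, -0.0323, 0.175 and -0.0945 in embryo CD45- cells, and in its CD45+ cells 0.00548, -0.0324, 0.166 and -0.0837. Yolk sac values were 0.0156, -0.00454, 0.0851 and -0.183 for CD45- cells and -0.00892, -0.121, 0.147 and 0.00331 for CD45+ cells. The files place probes on mm9. The summed level of a marker list is the log2 of the sum of its genes' linear levels.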

Additional observations from a re-analysis of the deposited data

Results flagged for a closer look

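Several genotype effects differed between gates or tissues by limma's test of the difference itself. F13a1's effect in the embryo was lower in CD45+ than in CD45- cells (-5.12, adjusted p = 0.000174), but its dim probe did not carry this call (-2.87, adjusted p = 0.61). In the yolk sac the effect was lower in CD45+ than in CD45- cells for Csf1r (-2.84), Emr1 (-3.38), Cx3cr1 (-6.51), F13a1 (-11.49), C1qa (-4.12), C1qb (-4.71) and C1qc (-4.73), with adjusted p of 5.51e-07 for F13a1 and at most 0.000577 for the others. Cx3cr1 and F13a1 were called in both gates with opposite signs. The probes of C1qa and C1qc were not well above background in CD45- cells of either genotype, and that of Cx3cr1 was not in control CD45- cells, so the sizes of these 3 differences are not exact.

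In the CD45- gate the effect was higher in the yolk sac than in the embryo for Cx3cr1 (4.48), F13a1 (3.48) and C1qc (3.11) and lower for Mertk (-2.98), with adjusted p of 0.00113 to 0.0196. Those of Cx3cr1 and C1qc rest on groups not well above background and did not pass with normexp (0.61 and 0.10, adjusted p = 0.208 and 0.879). That of F13a1 did not pass by its dim probe (adjusted p = 0.445). In the CD45+ gate the effect was lower in the yolk sac than in the embryo for Csf1r (-2.47), Emr1 (-3.11), F13a1 (-2.89), Mertk (-3.04), C1qa (-3.00), C1qb (-3.00) and C1qc (-3.20), with adjusted p of 0.00753 to 0.0464. Here too F13a1 did not pass by its dim probe (-3.38, adjusted p = 0.191). With no filter on dim probes Mertk and C1qb did not pass (adjusted p = 0.0823 and 0.0539). As tissue and slide cannot be told apart, these differences between tissues are also differences between slides.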

How the results depend on the processing

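The 9 falls in yolk sac CD45+ cells stayed called under every alternative that tested those genes, and leaving out 1 array gave 9 to 10 calls; with the filter for probes well above background on all arrays, which tests only Csf1r, Mrc1, F13a1, Mertk and C1qb, all 5 were called. Under that filter the genotype calls were 1 in embryo CD45- cells, 0 in embryo CD45+ cells and 3 in yolk sac CD45- cells. The gate calls were 5 in Tie-2-Etv2 embryo, 4 in Tie-2-Etv2 yolk sac and 5 in each control tissue, with 2 between control CD45- tissues, 3 for the gate difference of the yolk sac effect and 2 for the tissue difference of the CD45- effect, from fewer genes tested. With normexp the calls were 1 in embryo CD45- cells, 5 in embryo CD45+ cells, 3 in yolk sac CD45- cells, 2 between control CD45- tissues, 2 for the gate difference of the embryo effect and 2 for the tissue difference of the CD45- effect. The 4 or 8 compared arrays alone gave 1 call in embryo CD45- cells, 0 in embryo CD45+ cells, 3 between control CD45- tissues and 0 for the tissue difference of the CD45+ effect, and 1 slide alone gave 0 in embryo CD45+ cells. The mean of a gene's probes gave 2 calls in embryo CD45+ cells, and no filter on dim probes gave 2 between control CD45- tissues. The cause of these changes was not tested. The share of all genes called under most of these alternatives is not given.

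Leaving out 1 array gave 0 to 1 calls in embryo CD45+ cells, 1 to 3 between control CD45- tissues (1 without either control yolk sac array, 2 without control embryo replicate 2) and 1 to 6 for the tissue difference of the CD45+ effect (4 without control yolk sac replicate 1 and without Tie-2-Etv2 yolk sac replicate 2). In these fits the lone array of a group is assumed to vary like the other groups. Between control CD45- tissues C1qa turned to 0.01 with normexp, Csf1r to -0.37 and Emr1 to -1.28 by another probe, and the tissue difference of Emr1's CD45- effect to 1.43 by another probe. The replicate block gave 2 calls in embryo CD45+ cells (Emr1, and C1qb at adjusted p = 0.0435) and moved no other count past 1.5 times. Same-numbered arrays correlated at -0.0475 to 0.385 after removing group means, with 8 of 28 pairs over 0.1. Between the gates of one tissue and genotype the values were 0.222 in Tie-2-Etv2 embryo, 0.372 in Tie-2-Etv2 yolk sac, 0.385 in control embryo and 0.0322 in control yolk sac. Most of these 4 values were over 0.1, so same-numbered gates may share a sort, which the labels do not say. No such pairing was modelled, and the gates were treated as independent. The replicate block was 1 term common to all groups, so it could not take up a pairing within a tissue and genotype. The precision of the gate differences is uncertain to that extent. The 75th percentile scaling left a median of 0.18 over all genes in yolk sac CD45- cells, against 0.06 with quantile and -0.14 with detected-probe scaling, under which Csf1r was also called lower there (-0.81, adjusted p = 0.0249). Values of probes not well above background are bounds only.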
